A study of Mus musculus with 6 samples.

Results

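The genes examined here are 10 that sense oxygen or carry the signal of its lack: the hypoxia-inducible factor (HIF) genes Hif1a, Epas1 and Hif3a, their partner Arnt, the hydroxylase genes Egln1, Egln2, Egln3 and Hif1an, the ubiquitin ligase gene Vhl and the HIF target Bnip3. They were chosen by name, and a probe was taken as theirs where its accession mapped to one of these symbols, which gave 10 of the 20655 genes with a probe and 19 of 39429 probes. RNA came from 2 mouse melanoma lines: B16-F1, a line of the B16 melanoma that arose in a C57BL/6 mouse, and D5.1G4, for which the labels give the name and the tumour type only. The title of the study sets the lines side by side as tumours that differ in tumorigenicity. Both were grown untreated for 24 h in RPMI-1640 with 10% FBS at 37 °C in 5% CO2, to a confluence of 75% to 95%, and the labels state no oxygen level. Each line was hybridised to 3 one-colour Agilent arrays, and the labels do not say whether these were separate cultures, so that every p-value reflects only how these samples varied, which may be technical.

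HIF is a transcription factor made of an alpha subunit, which decays quickly when oxygen is present, and of the stable subunit encoded by Arnt. With oxygen, the prolyl hydroxylases encoded by the Egln genes modify the alpha subunit so that the VHL protein, part of a ubiquitin ligase, binds it and sends it to the proteasome, while the asparagine hydroxylase encoded by Hif1an blocks its contact with coactivators. This control acts on protein, whereas the arrays measured RNA. In bulk RNA, fewer cells that carry a transcript and less of it in each cell cannot be told apart.

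Between 53.4% and 54.4% of the spots were well above background on 4 arrays, and 62.0% and 61.7% on B16-F1 replicates 2 and 3. Arrays with the same scan identifier in their headers were taken as 1 slide. The slides were numbered here, as the labels name none. By this grouping B16-F1 replicates 2 and 3 shared slide 1. Slide 2 held B16-F1 replicate 1 with D5.1G4 replicates 2 and 3, and D5.1G4 replicate 1 was alone on slide 3. Arrays correlated at 0.983 to 0.990 within B16-F1, at 0.986 to 0.993 within D5.1G4 and at 0.941 to 0.957 between the lines, across features, which are not independent replicates. As a check of the melanoma label, 9 of 9 melanocyte genes were above background on every array of both lines. Some markers of other cells were detected too. Above background on all 6 arrays were 3 of 6 endothelial genes (Pecam1, Kdr and Vwf), 3 of 6 keratinocyte genes (Krt5, Krt14 and Trp63), 1 of 6 fibroblast genes (Postn) and 3 of the 6 leukocyte genes with a probe (Cd3e, Itgam and Csf1r). The leukocyte marker Ptprc was above background on 2 B16-F1 arrays and 0 D5.1G4 arrays, while Cdh5, Tek, Tie1, Dcn, Pdgfra, Col3a1, Thy1, Krt1, Krt10 and Ivl were not above background on any array. The summed signal, in units of the 75th percentile of the array, overlapped between the lines for the leukocyte list (1.01 to 2.24 in B16-F1 and 0.947 to 1.88 in D5.1G4), the endothelial list (0.755 to 1.56 in B16-F1 and 0.876 to 0.954 in D5.1G4) and the keratinocyte list (1.28 to 1.79 in B16-F1 and 1.51 to 2.13 in D5.1G4). It did not overlap for the fibroblast list, at 0.321 to 0.329 in B16-F1 and 0.638 to 0.975 in D5.1G4, where Postn was the only marker of these lists called (-1.39, adjusted p = 0.00379). The part of these markers in the results below was not tested.

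The sequences before the start sites of 4 members are given because these 4 had an adjusted p of 0.05 or less for the difference between the lines at their brightest probe. Each window runs from 250 bases before to 50 bases after the start, 5′ to 3′ on the gene's strand, from RefSeq on GRCm38.p6. Capitals mark ACGTG or GCGTG, the core letters to which HIF binds, on either strand, and CACGTG holds ACGTG on both strands and counts as 2 matches.
Bnip3 (chr7:138909457-138909756, minus strand): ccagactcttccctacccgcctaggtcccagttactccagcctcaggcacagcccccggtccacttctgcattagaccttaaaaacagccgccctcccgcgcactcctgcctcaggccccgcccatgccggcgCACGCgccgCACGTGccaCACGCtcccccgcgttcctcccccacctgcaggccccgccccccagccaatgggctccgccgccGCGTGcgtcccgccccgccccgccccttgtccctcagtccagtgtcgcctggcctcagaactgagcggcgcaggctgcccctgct
Egln1 (chr8:124949205-124949504, minus strand): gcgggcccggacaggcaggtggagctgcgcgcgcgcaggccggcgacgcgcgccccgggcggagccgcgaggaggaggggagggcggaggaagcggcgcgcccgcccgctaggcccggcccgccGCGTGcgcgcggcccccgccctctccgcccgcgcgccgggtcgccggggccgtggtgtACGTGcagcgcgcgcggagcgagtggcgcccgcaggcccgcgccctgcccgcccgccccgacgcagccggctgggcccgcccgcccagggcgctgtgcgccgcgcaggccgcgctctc
Hif1a (chr12:73907617-73907916, plus strand): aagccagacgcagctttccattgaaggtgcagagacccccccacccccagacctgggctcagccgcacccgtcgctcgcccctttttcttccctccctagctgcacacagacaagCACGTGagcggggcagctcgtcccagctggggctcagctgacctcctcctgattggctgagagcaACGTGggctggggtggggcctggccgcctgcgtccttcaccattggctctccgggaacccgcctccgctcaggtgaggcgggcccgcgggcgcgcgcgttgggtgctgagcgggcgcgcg
Hif3a (chr7:17062378-17062677, minus strand): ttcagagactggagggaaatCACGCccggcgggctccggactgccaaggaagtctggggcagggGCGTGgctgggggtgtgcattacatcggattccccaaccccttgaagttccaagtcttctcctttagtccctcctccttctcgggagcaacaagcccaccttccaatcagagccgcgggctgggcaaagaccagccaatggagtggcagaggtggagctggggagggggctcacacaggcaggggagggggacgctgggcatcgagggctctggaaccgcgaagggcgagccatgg
The Bnip3 window held 5 matches, the Hif1a window 3 and the Egln1 and Hif3a windows 2 each. ACGTG was found in the windows of Bnip3, Egln1, Egln2, Egln3 and Hif1a, 5 of the 9 members in the RefSeq table, and in 19.6% of all 32851 windows. Either motif was found for 7 of the 9 members and in 43.8% of all windows. The Vhl and Hif1an windows held neither, and Epas1 was not matched. A match is a description of the letters and not a site.

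Hif3a RNA was far lower in B16-F1 and Egln1 RNA was higher, while Hif1a and Bnip3 were higher by less than 2-fold and Epas1 depended on the probe. Arnt, Vhl and Hif1an differed by less than 2-fold and did not pass at an adjusted p of 0.05. Egln2 depended on the probe as well, with log2 differences of 0.01 and 0.60, and Egln3 was not detected. Each value below is the log2 of a probe's signal minus the 75th percentile of its array, so that 0 stands for that percentile. Differences are B16-F1 minus D5.1G4, with the standard error (SE), the 95% interval and the adjusted p of limma, n = 3 arrays in each line. A call needed both an adjusted p no higher than 0.05 and a difference of 2-fold or more. With the brightest probe standing for each gene, 2 of 9 tested members (22.2%) were called, 1 higher and 1 lower, against 15.2% of all 18456 features tested (6.28% higher and 8.9% lower). Probe by probe, 4 of 15 tested (26.7%) were called, 3 higher and 1 lower, against 15.7% of 22146 probes (7.02% higher and 8.7% lower). With no minimum fold 4 of 9 genes (44.4%) passed, against 34.9% of all features, and 8 of 15 probes (53.3%), against 35.5% of all probes. B16-F1 and D5.1G4 arrays were fully apart for 5 of the 9 genes (55.6%), against 50.7% of all features measured on every array, and for 9 of the 15 probes (60%), against 51.6%. With so few members these counts lie near the shares of all features.

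**Figure D1:**
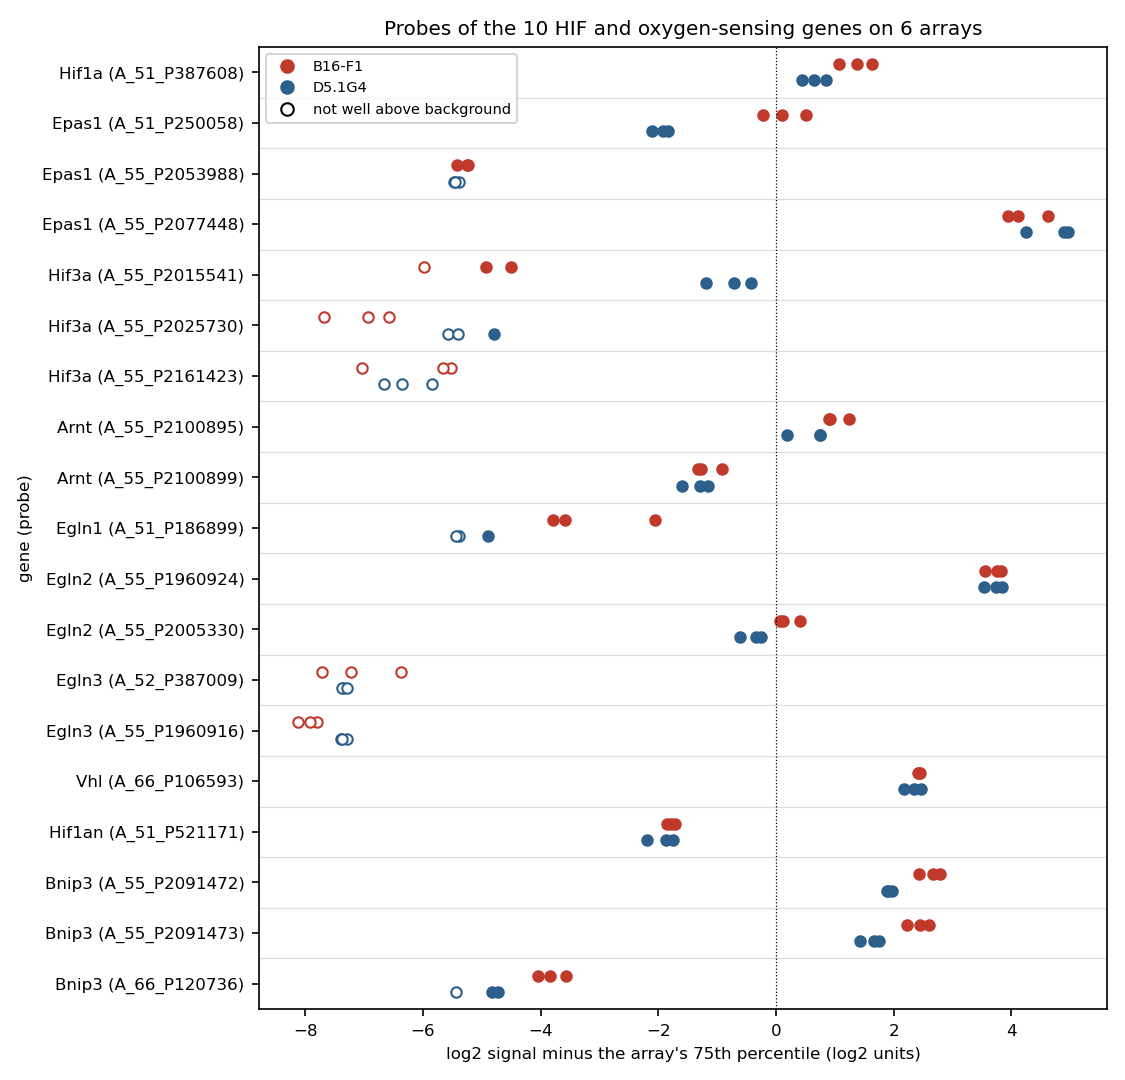
Normalised log2 signal of the 19 member probes (rows) on each array, with B16-F1 in red above D5.1G4 in blue and open points where a probe was not well above background. Levels can be compared along a row and not between rows; the points of the lines are fully apart for Hif3a (A_55_P2015541), Epas1 (A_51_P250058) and Egln1.

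Hif3a encodes the alpha subunit least like the others, and a mouse splice form of it, IPAS, holds HIF back. Its probe A_55_P2015541 read -5.99, -4.50 and -4.92 on B16-F1 replicates 1, 2 and 3, against -1.19, -0.72 and -0.42 on D5.1G4 replicates 1, 2 and 3. All D5.1G4 arrays lay above all B16-F1 arrays, and B16-F1 replicate 1 was not well above background. In B16-F1 Hif3a fell by 4.36 on the log2 scale (SE 0.41, 95% interval -5.35 to -3.37, adjusted p = 0.000688), a 20.6-fold difference. Of all features, 70 (0.379%) had a larger negative difference. Within slide 2 the difference was -5.42, from 1 B16-F1 array against 2 D5.1G4 arrays, with slide as a random block it was -4.65 (adjusted p = 0.000493), and with normexp background correction it was -2.52 (adjusted p = 0.0431). The other 2 Hif3a probes were too dim to test. A_55_P2025730 was above background on 1 D5.1G4 array and on no B16-F1 array (-7.06 ± 0.56 in B16-F1 and -5.26 ± 0.41 in D5.1G4, SD, n = 3 each), and no fold is given. A_55_P2161423 was not above background on any array, and the files do not say which transcript each probe reads.

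The 5 named genes whose arrays followed Hif3a most closely were Ly6c1, Gpr162, Il17b, Ahsg and Serpinb1a, taken from 12654 genes by the Euclidean distance between the 6 values of each gene, centred on its own mean. These distances ran from 0.664 for Ly6c1 to 0.988 for Serpinb1a, where Hif3a itself spanned 5.57 log2 units. Their lower signal in B16-F1 follows from this choice and is given as a description, with differences of -4.57 for Ly6c1, -4.54 for Gpr162, -4.89 for Ahsg and -4.79 for Serpinb1a, and at least 5.81-fold for Il17b. Il17b was not above background on any B16-F1 array, Ly6c1 and Ahsg on 1 of 3 and Serpinb1a on 2 of 3, so that the likeness rests in part on dim spots.

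Hif1a encodes the alpha subunit that most cells use for the acute response. Its only probe read 1.38, 1.08 and 1.64 on the B16-F1 arrays, against 0.84, 0.64 and 0.45 on the D5.1G4 arrays. The lines did not overlap. The difference was 1.65-fold with B16-F1 above D5.1G4 (0.72 in log2, SE 0.19, 95% interval 0.27 to 1.18, adjusted p = 0.0273), under the minimum fold and therefore not called. Within slide 2 it was 0.84. Its adjusted p depended on the setting, and over arrays left out in turn it ran from 0.0254 to 0.092. It was above 0.05 with normexp (0.128), the median of the array as scale (0.274) and the replicate block (0.0836). It was below 0.05 with quantile normalization (0.03), the authors' values (0.0296) and slide as a random block (0.0326). The fit on the median scale gave each member the same SE (0.363), so its p does not reflect the spread of a gene's own arrays.

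Epas1 encodes the alpha subunit also known as HIF-2 alpha, and its 3 probes gave different answers. Probe A_51_P250058 read 0.51, 0.11 and -0.22 on the B16-F1 arrays, against -1.84, -1.92 and -2.10 on the D5.1G4 arrays, and was higher in B16-F1 by 2.09 (SE 0.21, 95% interval 1.59 to 2.59, adjusted p = 0.000824), a 4.25-fold difference. The brightest probe, A_55_P2077448, read 4.12, 4.63 and 3.94 on the B16-F1 arrays, against 4.25, 4.97 and 4.90 on the D5.1G4 arrays. Here the lines overlapped, and the difference was -0.48 (SE 0.27, 95% interval -1.13 to 0.17, adjusted p = 0.215). The third probe, A_55_P2053988, lay near the detection limit, above background on all B16-F1 arrays and on no D5.1G4 array, and its difference of 0.14 (SE 0.11) did not pass (adjusted p = 0.376).

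The log2 ratio of A_51_P250058 to A_55_P2077448 within an array was -3.60, -4.52 and -4.16 in B16-F1, against -6.09, -6.89 and -7.01 in D5.1G4. The ratio differed by 2.56 log2 units and did not overlap between the lines. These probes were set side by side because their differences disagreed, so the ratio is a description, and it does not show which of them changed. Among 2467 genes with at least 2 probes above background on all 6 arrays, the median gap between the differences of a gene's probes was 0.44, and 12 genes (0.486%) had a wider gap than Epas1. The higher value of A_51_P250058 in B16-F1 was called under each alternative tried, from 1.85 to 2.52. Averaged over its tested probes Epas1 had a difference of 0.58, the opposite sign to that of its brightest probe. No direction is therefore given for Epas1 as a gene.

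Arnt encodes the shared partner of the alpha subunits. Probe A_55_P2100895 read 1.25, 0.91 and 0.91 on the B16-F1 arrays, against 0.75, 0.74 and 0.18 on the D5.1G4 arrays, a difference of 0.46 (SE 0.20, 95% interval -0.02 to 0.95, adjusted p = 0.124) without overlap. Probe A_55_P2100899 differed by 0.17 (SE 0.18, adjusted p = 0.484) and its arrays overlapped. Neither probe passed, and the interval of each leaves out a difference of 2-fold in either direction.

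**Figure D2:**
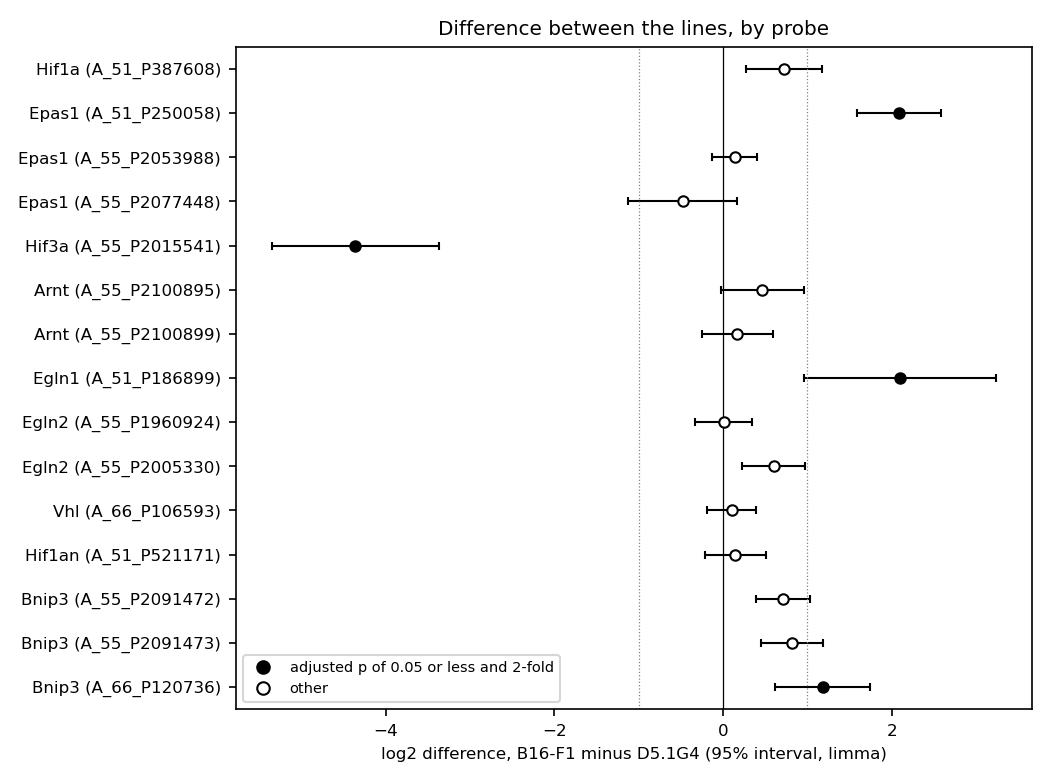
Log2 difference between the lines, B16-F1 minus D5.1G4, for the 15 member probes tested (points) with 95% intervals from limma, filled where the adjusted p is 0.05 or less and the difference at least 2-fold (dotted lines). Egln1, 1 Epas1 probe and 1 Bnip3 probe are filled to the right of 0 and Hif3a to the left.

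The prolyl hydroxylase genes did not move together. Egln1, which encodes the main oxygen sensor acting on HIF, read -3.79, -3.58 and -2.06 on the B16-F1 arrays, against -5.39, -4.90 and -5.43 on the D5.1G4 arrays, where it was well above background on 1 of 3. It rose in B16-F1 by 2.10 (SE 0.47, 95% interval 0.96 to 3.23, adjusted p = 0.0161), a 4.28-fold difference with no overlap of the lines. B16-F1 replicate 3 lay well above its fellows, and without it the difference was 1.55. Within slide 2 it was 1.37 (adjusted p = 0.0444), and with slide as a random block 1.88 (adjusted p = 0.0307). The call was lost without D5.1G4 replicate 1 (adjusted p = 0.0521) or replicate 3 (0.0608) and with normexp (1.16, adjusted p = 0.146). Only 1 probe reads Egln1, and no further probe checks it.

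Egln2, a hydroxylase found mainly in the nucleus, had a bright probe, A_55_P1960924, with 3.76, 3.82 and 3.55 on the B16-F1 arrays, against 3.53, 3.84 and 3.74 on the D5.1G4 arrays. These overlapped, and the difference was 0.01 (SE 0.14, 95% interval -0.33 to 0.34). Its other probe, A_55_P2005330, read 0.07, 0.11 and 0.41 on the B16-F1 arrays, against -0.60, -0.25 and -0.35 on the D5.1G4 arrays, with no overlap and a difference of 0.60 (SE 0.16, adjusted p = 0.027), which is under 2-fold. Egln3, itself a HIF target in many cells, was not well above background on any of the 6 arrays by either of its probes and was not tested. That is a statement on detection and leaves a low level possible.

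Neither Hif1an nor Vhl passed. Hif1an read -1.79, -1.86 and -1.72 on the B16-F1 arrays, against -2.20, -1.74 and -1.87 on the D5.1G4 arrays, a difference of 0.15 (95% interval -0.22 to 0.51, adjusted p = 0.478). Vhl read 2.43, 2.42 and 2.45 on the B16-F1 arrays, against 2.47, 2.34 and 2.18 on the D5.1G4 arrays, a difference of 0.10 (95% interval -0.19 to 0.39, adjusted p = 0.545). The lines overlapped for both genes, and the intervals leave out differences of 2-fold.

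Bnip3 encodes a mitochondrial protein that promotes mitophagy and is induced by HIF. It was higher in B16-F1 by each of its 3 probes. Probe A_55_P2091472 read 2.68, 2.79 and 2.44 on the B16-F1 arrays, against 1.91, 1.90 and 1.97 on the D5.1G4 arrays, a 1.64-fold difference (log2 difference 0.71, SE 0.13, 95% interval 0.39 to 1.03, adjusted p = 0.00793). Probe A_55_P2091473 gave 0.81 (SE 0.15, adjusted p = 0.00806), and neither of these reached 2-fold. The dim probe A_66_P120736 read -4.04, -3.56 and -3.85 on the B16-F1 arrays, against -4.82, -5.44 and -4.72 on the D5.1G4 arrays, and its difference of 1.18 (SE 0.23, adjusted p = 0.0104) was called, with 2 of 3 D5.1G4 arrays above background. The lines did not overlap on any of the 3 probes. Within slide 2 the differences were 0.74, 0.74 and 1.04, and none passed there (adjusted p = 0.0527, 0.0531 and 0.112).

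**Figure D3:**
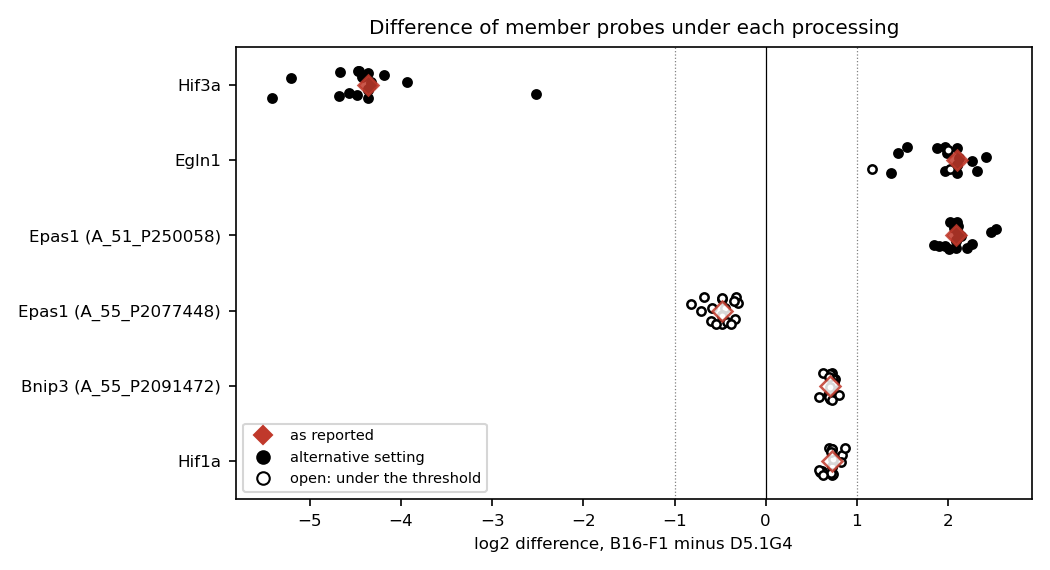
Log2 difference, B16-F1 minus D5.1G4, of 6 member probes as reported (diamonds) and under alternative processing or a left-out array (circles), filled where called. Not drawn were the unadjusted p, the dropped minimum fold and the mean over the probes of a gene, where Epas1 had a difference of 0.58. Hif3a and Epas1 probe A_51_P250058 were called under every setting drawn for them, Egln1 was open under 3, and Epas1 probe A_55_P2077448 lay below 0 throughout.

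Of 35 tested HIF targets outside glucose use 11 rose in B16-F1 (31.4%) and 1 fell, where 6.28% of all features rose and 8.9% fell. The median difference was 0.60 against -0.00 over all features tested. The list holds 44 genes, of which 8 were not above background on any array and were not tested. Vldlr was not tested either, as its brightest probe was above background on 2 B16-F1 arrays and 0 D5.1G4 arrays. Car9, a carbonic anhydrase widely used as a marker of HIF activity, read 0.43, 0.22 and 0.12 on the B16-F1 arrays, against -2.23, -2.34 and -1.75 on the D5.1G4 arrays. It rose 5.15-fold (log2 difference 2.37, SE 0.19, adjusted p = 0.000406) with no overlap. Ak4, a mitochondrial adenylate kinase gene, rose by 2.03 (SE 0.11, adjusted p = 9.49e-05). Adm, which encodes the vessel-dilating peptide adrenomedullin, rose by 1.81 (SE 0.17, adjusted p = 0.000801). Zfp395, a zinc finger gene, rose by 1.64 (SE 0.37, adjusted p = 0.0173), with D5.1G4 above background on 2 of 3 arrays. The collagen lysyl hydroxylase gene Plod1 rose by 1.32 (SE 0.34, adjusted p = 0.0273), though another of its probes gave -0.23, and the transferrin receptor gene Tfrc by 1.14 (SE 0.12, adjusted p = 0.00117).

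The other called genes of this list, named after their values were seen, were Ankrd37, Hmox1, P4ha1, Narf and Bhlhe40, higher by 1.03 to 1.12, and Bhlhe41, a repressor related to Bhlhe40, which fell by 1.12. Vegfa, the vascular endothelial growth factor gene, was 1.69-fold higher by its brightest probe (0.76, SE 0.11, adjusted p = 0.00359) and not called, while a different probe gave -0.60. Ndrg1, a stress-responsive gene, differed by -0.62 (SE 0.14, adjusted p = 0.0171) and not called. Within slide 2 the median of the list was 0.58. With the median of the array as scale 7 genes of the list rose, and with normexp 5 rose. Of all 18456 features 1159 rose in the reported fit, 1120 with the median scale and 535 with normexp. Whether the list differs from all features was not tested, and it was chosen with earlier results of these data known. Of the 12 called genes 9 lost the call under at least 1 alternative, and Car9, Ak4 and Tfrc under none.

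Genes of glucose uptake and glycolysis moved in both directions. Of 24 tested 3 rose and 2 fell, 20.8% in all against 15.2% of all features, and the median difference was -0.38. Called or not, 17 of the 24 had a difference below 0 and 7 above. Slc16a3, the exporter of lactate, read 0.76, 1.21 and 1.03 on the B16-F1 arrays, against -2.72, -2.83 and -2.42 on the D5.1G4 arrays, and rose 12.6-fold (log2 difference 3.66, SE 0.17, adjusted p = 6.66e-05). A further Slc16a3 probe gave 3.71. Aldoc, the aldolase isoform of brain, read 2.05, 2.14 and 2.08 on the B16-F1 arrays, against -1.18, -1.39 and -1.36 on the D5.1G4 arrays, and rose 10.6-fold (3.40, SE 0.11, adjusted p = 2.73e-05). Pdk1, the kinase that keeps pyruvate out of mitochondria, read -1.85, -1.83 and -1.92 on the B16-F1 arrays, against -4.90, -4.44 and -3.24 on the D5.1G4 arrays, and rose by 2.32 (SE 0.41, adjusted p = 0.00711). The lines did not overlap for any of these 3 genes, and the Pdk1 call was lost within slide 2 (1.99, adjusted p = 0.0818) and without the arrays of slide 1 (2.34, adjusted p = 0.0959).

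Eno2, the neuronal enolase, fell by 2.10 (SE 0.22, adjusted p = 0.00101). Pfkp, the platelet form of phosphofructokinase, also fell (-1.48, SE 0.15, adjusted p = 0.000983), where another Pfkp probe gave -0.29. Slc2a1, the glucose transporter GLUT1 and a standard HIF target, was 1.6-fold lower in B16-F1 (-0.68, SE 0.11, adjusted p = 0.00586) and not called. Ldha, the lactate dehydrogenase subunit, differed by -0.18 (SE 0.17, adjusted p = 0.46) by its brightest probe, and its further probes gave 1.33 and 0.94.

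**Figure D4:**
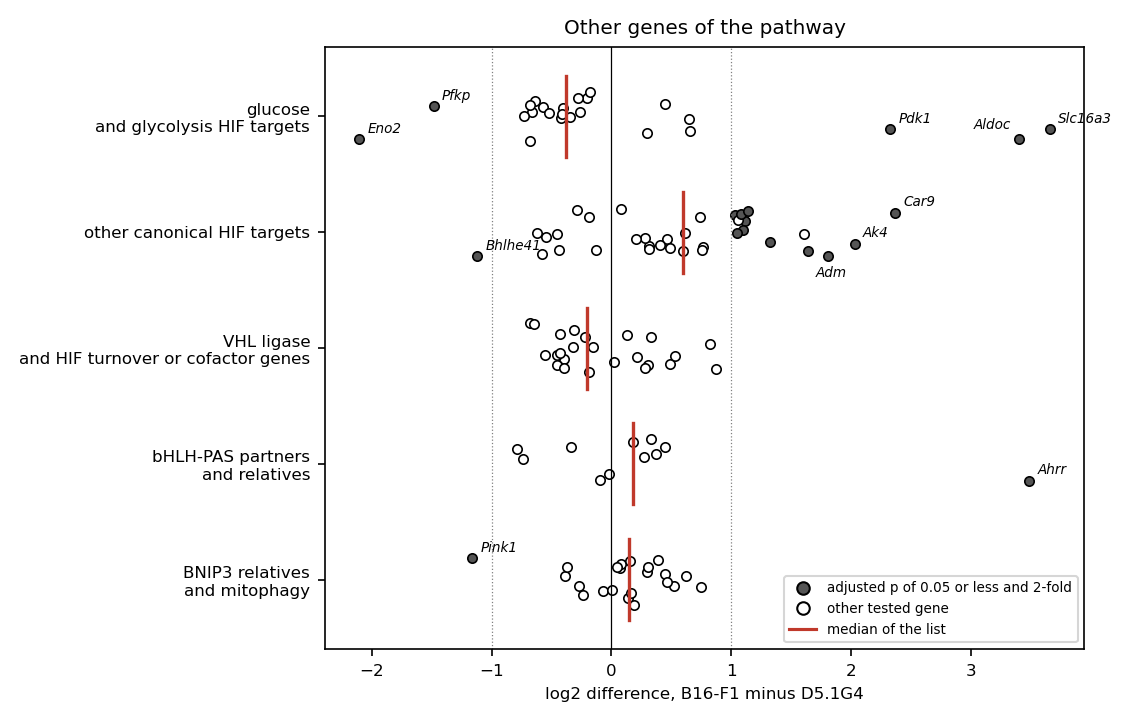
Log2 difference, B16-F1 minus D5.1G4, of each tested gene in 5 lists of the pathway (rows), filled where called, with the median of each list as a red line. Of the 35 HIF targets outside glucose use 26 lie to the right of 0. Of the 24 genes of glucose use 17 lie to the left, with calls on both sides.

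The genes around the members showed few calls. Of 24 tested genes of the VHL ligase, HIF turnover and coactivators 0 were called by limma, against 15.2% of all features. With no minimum fold 3 of the 24 passed at an adjusted p of 0.05 or less, against 34.9% of all features. Of 11 tested partners and relatives of the same protein family 1 was called: Ahrr, the repressor of the aryl hydrocarbon receptor, read -2.79, -3.16 and -3.15 on the B16-F1 arrays, against -7.39, -6.42 and -5.74 on the D5.1G4 arrays, where it was not well above background. The B16-F1 mean was at least 4.28-fold above that of D5.1G4. Ahrr passed the detection filter through its 3 B16-F1 arrays alone. The adjusted p of limma (0.0016) belongs to the measured values, dim D5.1G4 spots included, and not to this bound. The call was lost with normexp (adjusted p = 0.0753). Of 22 tested relatives of Bnip3 and mitophagy genes 1 was called, Pink1, the kinase that marks damaged mitochondria, which read 1.22, 1.5 and 1.29 on the B16-F1 arrays, against 2.63, 2.45 and 2.41 on the D5.1G4 arrays. It fell by 1.16 (SE 0.13, adjusted p = 0.00131). Bnip3l, the closest relative of Bnip3, was higher by 0.44 (SE 0.12, adjusted p = 0.042) and not called, in a fit without D5.1G4 replicate 1, whose spot was set to missing.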

How the data were processed

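The deposited scanner files give a linear intensity for every spot, made with Agilent Feature Extraction 11.0.1.1 per the file headers, with background subtracted and trends removed within the array. Flags of 0 or 1 in the deposited files mark spots above background or out of line. The authors' own table holds log2 values for 22147 probes (own-array correlation at least 0.999), made by steps not given in the sources used here. 

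From log2 of this intensity each array's 75th percentile was subtracted. The 0.674% to 1.58% of spots per array with a uniformity or outlier flag were dropped, spots of a probe were averaged and no spot was saturated. Accessions were matched without version to the RefSeq table of GRCm38.p6, which named 27228 of 39429 probes (69.1%). The probe with the highest mean stood for its gene. Features above background on at least 3 of 6 arrays were tested with limma 3.58.1 (R 4.3.3), two-sided, with Benjamini-Hochberg adjustment over all features, and probes likewise. The p-values of members are from the fit of all probes unless a left-out array or another setting is named, and those of other genes are from the fit of genes. The series text sets the 2-fold and p limits and names no test. An "at least" fold sets the brighter line's mean against, per array of the dimmer line, the higher of the probe's signal and the lowest signal well above background.

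Tested on simulated data for this comparison (17673 features), the fit recovered 69 of 100 log2 differences of 1.5 and 94 of 100 of 3, with 9 false calls. The simulated noise was independent between arrays, with no slide effect and no background limit, so recovery under those was not tested. The members and lists were chosen with earlier results of these data known. The genes named are all members, 8 standard HIF-related genes, up to 6 called genes of each list and the 5 genes most like the member with the largest difference. Bmal2, Calcoco2 and Cd68, in the lists, had no probe. The files hold no mean spot signal, so normexp used the median signal.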

Additional observations from a re-analysis of the deposited data

How the results depend on the processing

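Counts of calls kept within 1.5 times under most alternatives. Normexp left 1250 features of 2801, 1 member, 2 member probes, 5 HIF targets outside glucose use and 0 partners. With no minimum fold the counts were 6436 features, 4 members, 8 member probes, 12 glycolysis genes, 19 other targets, 3 VHL ligase and turnover genes, 4 partners and 7 mitophagy genes. Requiring all 6 arrays above background left 0 members, since Hif3a and Egln1 are then not tested, 1 member probe and 0 partners, and no filter gave 2 partners. Slide 2 holds 1 B16-F1 array. Within it the differences of 2-fold or more in the VHL ligase, turnover and cofactor list were those of Siah1a (1.04) and Cited4 (-2.17). The median of the array as scale moved the median of all features to -0.13 and the share of higher calls to 34.4% from 41.4% in the reported fit. The fit on the median scale gave each member the same SE (0.363). Its p-values and calls therefore do not reflect the spread of a gene's own arrays.

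Leaving out each array in turn gave 2531 to 3379 features, 1 to 2 members and 3 to 4 member probes. It gave 5 to 5 glycolysis genes, 9 to 13 other targets and 0 to 1 of the VHL ligase, turnover and cofactor list. Partners and mitophagy genes stayed at 1 to 1 each. Of the 2 members called, Egln1 lost its call without D5.1G4 replicate 1 or replicate 3, and Hif3a kept its call without any 1 array. The 1 call in the VHL ligase, turnover and cofactor list came without B16-F1 replicate 1.

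The sign turned for Epas1 with the mean over its probes (0.58), for Epas1 probe A_55_P2053988 with quantile normalization (-0.076) and the authors' values (-0.061), for Vhl with the median scale (-0.025), and for Ldha with quantile normalization (0.22), the authors' values (0.22) and the mean over probes (0.70). Egln2 (0.01 as reported) turned with normexp (-0.017), the median scale (-0.12) and slide 2 alone (-0.026), and without B16-F1 replicate 1, B16-F1 replicate 2 or D5.1G4 replicate 1 (range over arrays left out -0.077 to 0.089). Apart from Epas1, Ldha and these small differences, no named gene turned. The cause of these changes was not tested. Slide 2 alone and the fit without slide 1 hold 1 B16-F1 array, which is assumed to vary as D5.1G4 does.

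The labels give both lines the same replicate numbers, but same-numbered arrays did not deviate together (correlations of -0.39, -0.03 and -0.30). Same-numbered arrays never shared a slide, so this check cannot show whether the numbers mark a pairing. With the replicate block 2584 features, 2 members and 3 member probes were called, and Bnip3 probe A_66_P120736, Zfp395 and Plod1 lost their calls (adjusted p = 0.0524, 0.0569 and 0.0889). Signal over background limits Egln1, Hif3a, Egln3 and the dim probes of Epas1 and Bnip3.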

Other observations

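Several HIF targets had probes that disagreed by more than the SE of either, beside the members. The brightest Ldha, Vegfa, Plod1 and Pfkp probes gave -0.18, 0.76, 1.32 and -1.48, whereas their other probes gave 1.33 and 0.94, -0.60, -0.23, and -0.29. With the mean over the probes of a gene, Plod1 (0.55) and Pfkp (-0.88) were no longer called. The 4 probes of Bnip3l gave 0.44, 0.66, 0.90 and 0.77, and the 2 probes of Slc16a3 gave 3.66 and 3.71, so that for these genes all probes pointed the same way.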
